A study of Mus musculus with 13 samples.

Results

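Imprinted genes with R-loops described elsewhere were followed through DRIP-seq peak lists of N2a cells. They are Snrpn, Ube3a, Peg3, H19, Igf2, Kcnq1ot1, Meg3, Igf2r, Airn and Gnas. The genes were chosen by name, 10 among 37311 gene windows in all, and each window held the mm9 bounds of the gene in GENCODE vM1 with 1 kb added on both sides. Kcnq1ot1 has no entry in that annotation. Its start was placed by a unique exact match of its RefSeq promoter to mm9, and its window held only that start with 1 kb on both sides. N2a is a mouse neuroblastoma line, transfected here with scramble siRNA (siScramble) or with siRNA against DDX1, a putative RNA helicase, or EXOSC3, a subunit of the RNA exosome. Every group had 3 libraries of DNA pulled down with the S9.6 antibody without prior digestion (called untreated) and 1 library of DNA digested with RNase H before the pull-down. The labels give every sample a wild-type genotype. N2a is a single tumor line, and the peak lists do not separate the parental alleles. They were called per library and give positions and fold enrichment but no reads.

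In 12 of 12 lists the peaks carried the name of another siRNA than the sample's title. Groups below follow the titles, and "labelled siDDX1" means titled so. By the peak names, libraries labelled siScramble would be siDDX1, those labelled siDDX1 would be siEXOSC3, and those labelled siEXOSC3 would be siScramble. Which is right cannot be told from the lists. Tests over all 3 groups and tests of RNase H do not depend on it, but the direction of every pair does.

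An R-loop forms when RNA pairs with the template strand of DNA and leaves the other strand unpaired. The S9.6 antibody binds the hybrid, and RNase H degrades the RNA of the hybrid, so a digested library serves as the negative control. Imprinted genes are expressed from a single parental allele. Most lie in clusters governed by a control region that carries DNA methylation on the maternal or the paternal allele, and many clusters hold a long noncoding RNA (Airn, Kcnq1ot1, H19, Meg3, Nespas, or the antisense transcript through Ube3a in neurons) made opposite to, or beside, the protein-coding genes.

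Untreated libraries held 23882 to 42571 peaks and RNase H libraries 3811 to 8034. The fragment depth of the background, recovered from the peak statistics, was 0.544 to 1.292 fragments per position in untreated libraries and 1.125 to 1.595 in RNase H libraries, so the digested libraries were not the shallower ones as a set. Among 2000 peaks drawn at random from each list, the weakest rested on 5 to 7 fragments at its summit in untreated lists. In RNase H lists it rested on 8 to 9, which limits what could be seen. Among the neuroblastoma and neuronal marker genes reported, Hand2, Tubb3 and Snap25 had a peak in every untreated library, 4 markers had a peak in 1 to 8 libraries, among them Mycn in 2 and Gap43 in 8, and 4 had none. Of 7 markers of other cell types 6 had none, and Gfap, an astrocyte gene, had a peak in 4 of 9.

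Peaks were concentrated at few of the 10 genes. Ube3a and Gnas had a peak in 9 of 9 untreated libraries, Peg3 in 8 of 9 and the Kcnq1ot1 start in 2 of 9. The other 6 (Snrpn, H19, Igf2, Meg3, Igf2r and Airn) had no peak in any untreated library, and 5 of these had none in any library at all. Over all annotated genes, 18.1% had a peak in 9 of 9 untreated libraries and 63.4% had none. Among protein-coding genes of at least 50 kb, 40.8% had none, against 2 of the 4 such members (Snrpn and Igf2r). Among lincRNA genes 49.6% had none, against both lincRNA members, Meg3 and Airn. The 10 genes together held 170 untreated peaks, of which 120 lay at Gnas.

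Gnas carried by far the longest stretches of signal among the 10 genes. The gene encodes the stimulatory G protein alpha subunit, and its locus on chromosome 2 (174109821 to 174172245, plus strand) makes several transcripts from alternative first exons with different imprinting. Nesp is made from the maternal allele and Gnasxl and the antisense Nespas from the paternal allele, and exon 1A lies at the control region just upstream of exon 1 of Gnas itself. Peaks covered 18591, 30150 and 29733 bases in the libraries labelled siScramble, 27724, 22058 and 22147 in those labelled siDDX1, and 21446, 22665 and 25911 in those labelled siEXOSC3. All 9 untreated libraries lay far above the 776, 0 and 457 bases of the RNase H libraries in the same order of groups. By its mean of 24492 ± 4044 covered bases (SD, n = 9) Gnas ranked 57th of 37311 gene windows, and 99.8% of windows had less. A long gene of 62.4 kb can hold more than a short one.

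The Gnas signal fell into separate blocks along the gene. The first block (chr2:174108236-174128685, 20450 bases) was called in 9 of 9 untreated libraries and held the starts of Nesp, Nespas and Gnasxl, each of which lay under a peak in 9 of 9. The next recurrent block (chr2:174152602-174157442, 4841 bases) was also called in 9 of 9. Its exon 1 start lay under a peak in 9 of 9 libraries, while the exon 1A start did so in 3 of 9, 1 of each group. These starts lie 45.7 and 43.4 kb past the Nesp start. Past these starts, a block at chr2:174158829-174160520 was called in 8 of 9 and the last long block (chr2:174161347-174167648) in 9 of 9, with 4.31% and 12.5% of their bases in exons. The highest fold enrichment of the gene, which is the peak summit over its local background as the peak caller gave it, fell in the last block in 6 libraries and in the block of exons 1A and 1 in the other 3. Between the first block and that of exons 1A and 1, no region was called in more than 2 libraries.

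**Figure D1:**
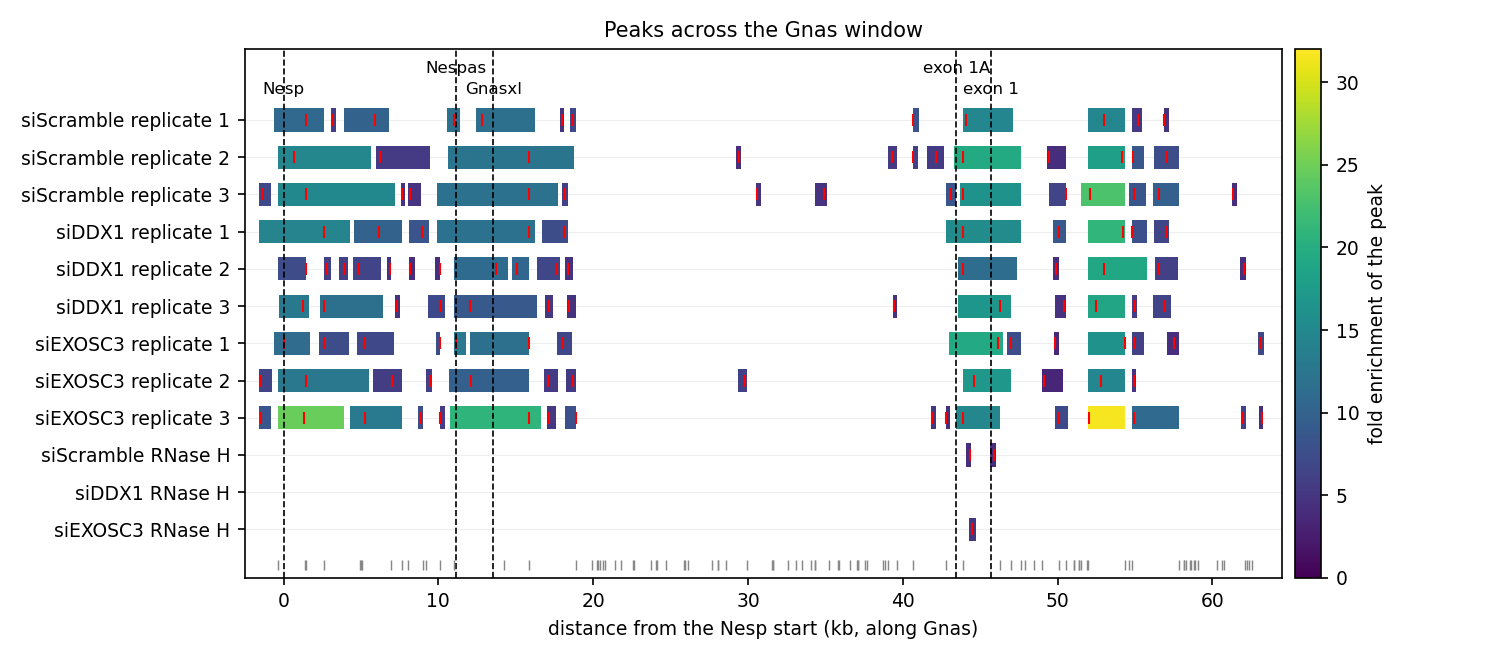
Peaks (bars) of each library across the Gnas window, with distance from the Nesp start in kb along the gene on the x axis and a row per library on the y axis. Color gives fold enrichment on a linear scale, red ticks mark summits, dashed lines mark transcript starts and grey ticks mark restriction cuts. The 9 untreated libraries share the blocks at Nesp to Gnasxl, at exons 1A and 1, and in the gene body, and the RNase H libraries hold 3 short peaks in the block of exons 1A and 1.

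The blocks differed in base composition. The block of exons 1A and 1 had 62.3% GC and a CpG observed over expected ratio of 0.814, the first block 51.5% and 0.496, and the last block, which most often held the highest fold, 48.03% and 0.241. All regions of the series had medians of 47.6% and 0.219, and regions called in 9 of 9 libraries 50.7% and 0.270. The 200 bases ahead of exon 1, shown with CpG in capitals because this is the densest CpG promoter of the group that lay under a peak in all untreated libraries, read as follows on the plus strand (chr2:174155307-174155506, mm9).
Gnas exon 1 upstream: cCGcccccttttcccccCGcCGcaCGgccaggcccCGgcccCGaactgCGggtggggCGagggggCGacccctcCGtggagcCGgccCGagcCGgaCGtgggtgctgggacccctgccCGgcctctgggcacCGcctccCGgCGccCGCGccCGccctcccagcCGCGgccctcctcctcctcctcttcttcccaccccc
It holds 23 CpG. DNA was cut with 5 restriction enzymes before the pull-down, so a hybrid anywhere on a fragment brings the whole fragment down. In 5 of 9 untreated libraries the highest summit of this block lay within 5 bases of an XbaI cut between the exon 1A and exon 1 starts (first base after the cut 174153711), whose site is in capitals here (chr2:174153697-174153726, plus strand).
Gnas summit cut: tttttttgtctttTCTAGActctcttcccc
Of the 246 edges of peaks in the Gnas regions, 86 (35%) lay exactly on a cut, against 30.7% of all untreated peak edges on the chromosomes of the 10 genes.

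Ube3a, the ubiquitin ligase whose loss causes Angelman syndrome and which is expressed from the maternal allele in neurons, had its signal at the start of the gene (chromosome 7, 66484122 to 66562097, plus strand). Peaks covered 1953, 2938 and 2948 bases in the libraries labelled siScramble, 3587, 2621 and 2948 in those labelled siDDX1, and 1480, 2395 and 3078 in those labelled siEXOSC3. The groups overlapped. The highest fold enrichment was 8.78, 11.1 and 7.84, then 9.16, 8.61 and 7.12, then 6.83, 7.95 and 8.36, and the summits rested on 10 to 20 fragments. Of the 20 untreated peaks 16 fell on a single region of 2948 bases (chr7:66483183-66486130), which was called in 9 of 9 libraries, and the start itself lay under a peak in 8 of 9.

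That region was the restriction fragment that holds the start. Both of its ends were SspI cuts. The right end was the edge of a peak in 9 of 9 libraries and the left end in 5, while in the other libraries the left border lay elsewhere. The sites, with the recognition sequence in capitals, are shown because these cuts coincide with peak borders (chr7:66483169-66483198 and chr7:66486116-66486145, mm9, plus strand).
Ube3a left edge: ccaataataaaAATATTttttatagtgggg
Ube3a right edge: ataatttgtgtcAATATTtaccttgcatgg
The region spanned 50.5% GC with a CpG observed over expected ratio of 0.815. The 200 bases before the RefSeq start (chr7:66483920-66484119, plus strand) hold 22 CpG, in capitals here.
Ube3a upstream: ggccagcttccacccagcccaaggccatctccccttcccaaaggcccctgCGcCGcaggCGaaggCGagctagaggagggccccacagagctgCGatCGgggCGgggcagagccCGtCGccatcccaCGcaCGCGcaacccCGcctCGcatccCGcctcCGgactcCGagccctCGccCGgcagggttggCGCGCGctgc
A weaker region outside exons (chr7:66489778-66490416) was called in 3 libraries, 1 of each group, with folds of 3.67 to 4.36, and another (chr7:66505767-66506136) in 1. The remaining part of the gene, which the neuronal antisense transcript crosses, held no untreated peak. The RNase H libraries labelled siScramble and siDDX1 had a peak deep in the gene (chr7:66535370-66535866, folds of 5.78 and 4.62) where no untreated library had one.

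**Figure D2:**
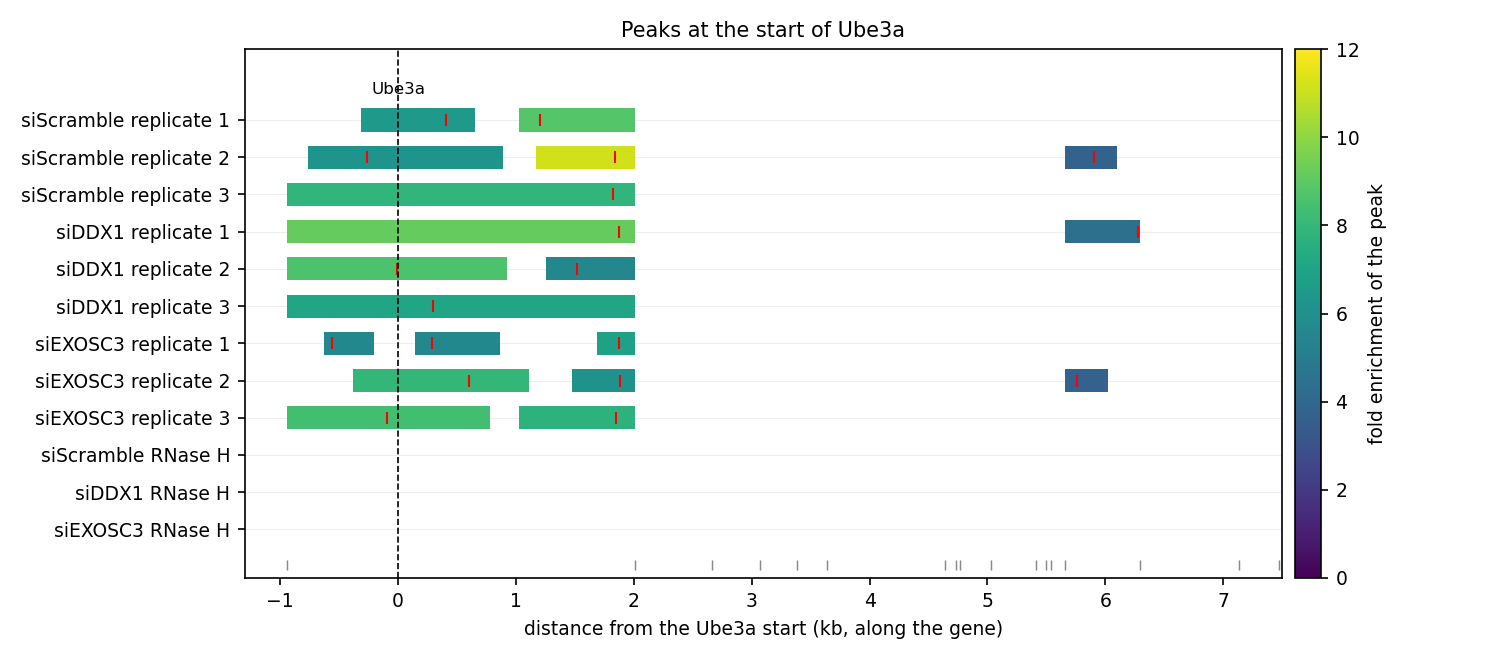
Peaks (bars) of each library at the 5′ end of Ube3a, with distance from the start in kb along the gene on the x axis and a row per library on the y axis. Color gives fold enrichment, red ticks mark summits and grey ticks mark restriction cuts. In each of the 9 untreated libraries a peak ends at the same cut 2 kb past the start, and the RNase H rows are empty in this stretch.

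Peg3, a paternally expressed zinc-finger gene whose first exon and intron form the control region of its cluster, varied between no peak and several kb of peaks (chromosome 7, 6656603 to 6683132, minus strand). Peaks covered 0, 2316 and 640 bases in the libraries labelled siScramble, 4085, 784 and 549 in those labelled siDDX1, and 2604, 4006 and 4057 in those labelled siEXOSC3. Those labelled siEXOSC3 all lay above those labelled siScramble, and 1 library labelled siDDX1 was as high as they were. The signal was weak throughout. The highest folds of the 8 libraries with a peak were 4.82 to 9.01 and rested on 7 to 19 fragments. No RNase H library had a peak.

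The Peg3 peaks lay from 1 kb before the start to 7 kb into the gene, in short pieces that seldom coincided. They merged into a region at the start (chr7:6682953-6684096, 7 of 9 libraries), a region mostly over intron 1 (chr7:6678788-6682898, 6 of 9, 12.1% of its bases in exons) and a region further in (chr7:6676676-6678631, 7 of 9, all of it in annotated exons). The start itself lay under a peak in 2 of 9, since 964 of the 1144 bases of the first region lie upstream of it. On average a library that called the intron 1 region covered 36.9% of it, against 83.4% for the main Ube3a region. Only 7 of 56 peak edges (12.5%) lay on a restriction cut, against the 30.7% given above. The restriction fragment at the Peg3 start is 4295 bases long.

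The intron 1 region held 11 copies of GCCATCTT, the core letters of a YY1 site, all on the sense strand of Peg3 and 832 to 3120 bases past its start. YY1 is a zinc-finger factor for which tandem sites in this intron are well known. Searched on both strands, this motif occurred at 2.68 copies per kb in the region, against 0.0802 per kb over all regions and in 3.24% of 23648 promoters of 300 bases. TGCCGC, the core letters of a site for ZFP57, which keeps methylation at imprinted control regions, occurred 8 times in the region (1.95 per kb, against 0.211 per kb over all regions) and in 13.7% of promoters. A peak reached the stretch of 300 bases with most copies of the YY1 letters only in siScramble replicate 2, siDDX1 replicate 1 and siEXOSC3 replicate 1, as labelled. Calls on this stretch thus did not set the groups apart, and it is shown for its letters only. With 3 copies in capitals, it reads along Peg3 as follows (chr7:6680545-6680844, mm9, minus strand).
Peg3 intron 1: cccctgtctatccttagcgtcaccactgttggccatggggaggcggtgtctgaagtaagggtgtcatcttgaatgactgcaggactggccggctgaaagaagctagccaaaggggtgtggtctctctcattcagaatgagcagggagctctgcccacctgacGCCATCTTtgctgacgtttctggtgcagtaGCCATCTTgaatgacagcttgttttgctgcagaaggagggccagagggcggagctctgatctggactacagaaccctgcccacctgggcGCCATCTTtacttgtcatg
A match to these letters is a description of the sequence and not a measured site.

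**Figure D3:**
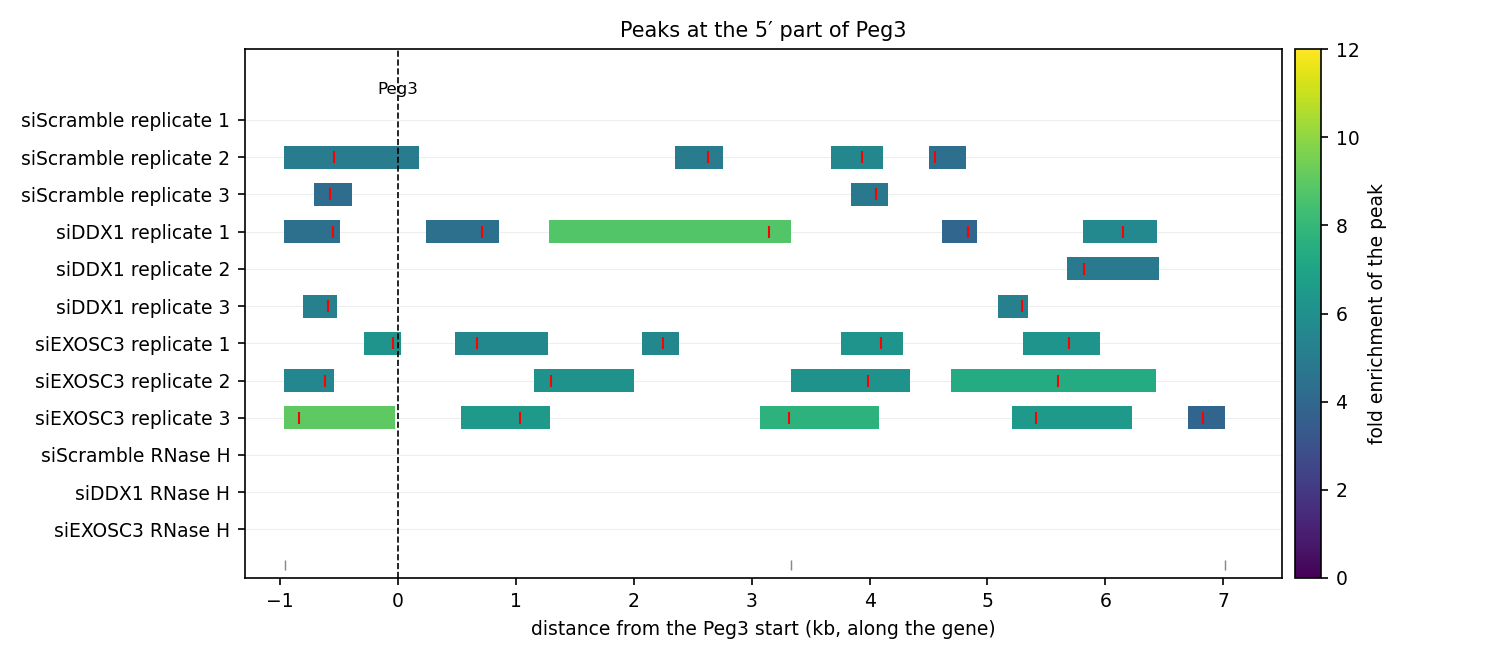
Peaks (bars) of each library at the 5′ part of Peg3, with distance from the start in kb along the gene on the x axis and a row per library on the y axis. Color gives fold enrichment, red ticks mark summits and grey ticks mark restriction cuts. The 3 libraries labelled siEXOSC3 hold 4 or 5 peaks each, 1 library labelled siScramble holds none, and the RNase H rows are empty.

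Kcnq1ot1, the paternally expressed antisense RNA that silences genes of its cluster, starts inside an intron of the potassium channel gene Kcnq1 (start at 150482452 on chromosome 7, minus strand). Peaks at its start were found in 2 of 9 untreated libraries, both labelled siEXOSC3. They covered 388 bases in replicate 2 (fold 4.28, 6 fragments at the summit) and 237 bases in replicate 3 (fold 5.79, 8 fragments). Both summits were close to the weakest peaks sampled, and not above the 8 to 9 fragments of the weakest RNase H peaks sampled. By the peak names these libraries would be siScramble. Both peaks covered the start and both ended at the same BsrGI cut, in capitals here (chr7:150482638-150482667, plus strand).
Kcnq1ot1 right edge: tgggtgagctTGTACAggattgtacgacct
Ahead of the start the sequence is poor in CpG, with 4 in 200 bases (chr7:150482453-150482652, minus strand).
Kcnq1ot1 upstream: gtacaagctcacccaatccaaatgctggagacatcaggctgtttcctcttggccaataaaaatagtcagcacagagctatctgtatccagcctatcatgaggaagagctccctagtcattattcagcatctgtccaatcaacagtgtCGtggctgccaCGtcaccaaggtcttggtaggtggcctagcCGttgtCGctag
The rest of Kcnq1 held weak regions too. The most recurrent (chr7:150422578-150423443), 59.4 kb past the Kcnq1ot1 start along that RNA, was called in 6 of 9 untreated libraries, 3 labelled siScramble, 2 labelled siDDX1 and 1 labelled siEXOSC3.

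The remaining 6 genes had no untreated peak, and their windows lay 12.3 kb or more from any untreated region. Snrpn, a paternally expressed splicing-protein gene at the control region of the cluster it shares with Ube3a, lay in a stretch of 1651 kb without an untreated region. The nearest regions were 620 kb away on the Ube3a side and 871 kb on the other. Igf2r, the maternally expressed receptor that clears IGF2, and Airn, the paternal antisense RNA that silences it, lay together in a stretch of 587 kb. The edge of that stretch was a region called in 9 of 9 libraries at Tcp1, 54.7 kb past the Airn window. H19, a maternally expressed noncoding RNA, and Igf2, the paternally expressed growth factor that shares its enhancers, lay in a stretch of 423 kb, with a region called in 1 library 12.3 kb from the H19 window and a region called in 9 of 9 at Mrpl23, 32.5 kb away. Meg3, a maternally expressed noncoding RNA, lay in a stretch of 1003 kb. Its only peak was in the RNase H library labelled siDDX1 (chr12:110808274-110808527, fold 4.62), near the 3′ end of the gene. At this depth an enrichment below the 5 to 7 fragments of the weakest peaks sampled could go uncalled, so these are calls of no peak and not absence of a hybrid.

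Promoter sequence did not fully separate the genes with peaks from those without. RefSeq promoters of 300 bases (250 before and 50 after a start) matched mm9 exactly at 19 starts of 9 of the genes, with none for H19. Of the 8 promoters with at least 50% GC and a CpG observed over expected ratio of at least 0.6, 3 overlapped a peak in 9 of 9 libraries (Ube3a and 2 of Gnas), 2 did so in some libraries (exon 1A of Gnas) and 3 in none (Igf2r, 1 of Igf2 and 1 of Meg3). Of the other 11 promoters, 2 overlapped a peak in some libraries (Peg3 and Kcnq1ot1) and 9 in none. Over 9929 annotated protein-coding and lincRNA genes with promoters of the first kind, 22.3% lay in a region called in 9 of 9 libraries and 51.7% in no region. Over 13719 genes of the other kind these shares were 5.17% and 87.9%. These shares count regions merged over the libraries, which is looser than a peak of every library on the promoter itself. By that looser rule the exon 1A promoters of Gnas, inside a block called in 9 of 9, would count as 9 of 9 too. The shares are thus not a like measure to the member counts. The 200 bases ahead of Igf2r and of the Snrpn start nearest to the 3′ end of the gene (chr17:12962573-12962772 and chr7:67150086-67150285, both minus strand) are shown to set against those of Ube3a and Gnas.
Igf2r upstream: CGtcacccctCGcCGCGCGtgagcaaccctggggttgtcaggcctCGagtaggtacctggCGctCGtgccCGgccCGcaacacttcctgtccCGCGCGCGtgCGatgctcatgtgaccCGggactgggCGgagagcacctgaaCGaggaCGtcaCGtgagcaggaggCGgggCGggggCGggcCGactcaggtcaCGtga
Snrpn upstream: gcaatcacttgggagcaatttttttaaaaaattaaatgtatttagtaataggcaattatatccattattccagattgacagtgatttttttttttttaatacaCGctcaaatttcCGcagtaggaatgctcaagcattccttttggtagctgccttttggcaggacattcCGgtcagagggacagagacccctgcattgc
Igf2r has 25 CpG in this stretch, more than the 22 of Ube3a, and no peak in any library, whereas Snrpn has 3. The restriction fragment at these starts was 1132 bases for Igf2r and 603 for Snrpn, against 2948 for Ube3a and 2402 for exon 1 of Gnas. The other CpG-rich promoters without a peak lay on longer fragments, of 3487 bases for Igf2 and 3790 for Meg3, and another Igf2 start without a peak on 6686. Fragment length thus did not separate these starts either. Over CpG-rich promoters the median fragment at the start was 2396 bases where the region was called in 9 of 9 libraries and 1606 where none was called. The part of fragment length in the calls was not tested.

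**Figure D4:**
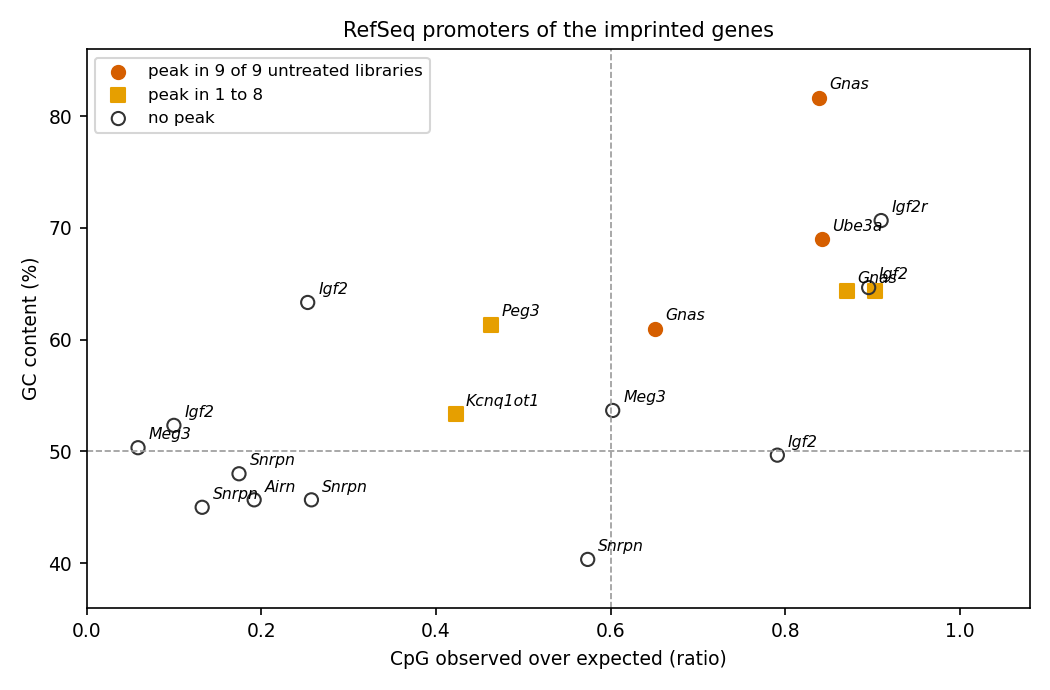
GC content (y axis, percent) against CpG observed over expected (x axis, ratio) of the 19 RefSeq promoters of 9 imprinted genes, colored by how many untreated libraries had a peak on them. Dashed lines mark 50% GC and a ratio of 0.6. Promoters with a peak in 9 of 9 libraries are all in the upper right field, where 3 promoters without any peak also lie.

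RNase H digestion is the control for hybrids. Averaged over the groups, digestion lowered the covered bases of Gnas, which fell by 24081, and of Ube3a, which fell by 2411 (two-sided exact permutation p = 0.015625, which 64 assignments cannot go below, and adjusted p = 0.0409 over 14870 genes, each for both). These were the 2 called of the 5 members with a test, and 36.2% of all genes tested were called lower. Both had a peak in every untreated library, whereas the 36.2% rests on genes with a peak in any library and is not a like share. Peg3 fell by 2116 bases with no peak in any RNase H library, and missed the threshold (exact permutation p = 0.0625, adjusted p = 0.116). A summit of the 7 fragments seen in 3 of the untreated libraries lay below the weakest RNase H peak sampled. The 69.4 bases by which the Kcnq1ot1 mean dropped and the 84.7 by which the Meg3 mean rose did not pass either (exact permutation p = 0.75 and 0.25). The 6 RNase H peaks at the 10 genes had folds of 4.24 to 5.78, and 3 of them overlapped an untreated peak, all in the Gnas block of exons 1A and 1 (64.99% to 80.3% GC). The 2 at Ube3a lay in sequence of 30.9% and 32.8% GC. Taken as bases per covered Mb of each library, Gnas still fell by 623 (adjusted p = 0.0372, exact permutation), while Ube3a turned to 15.3 higher after digestion (adjusted p = 0.598). The RNase H bases of Ube3a all came from the peaks deep in the gene. The region at its start held 0 bases in every RNase H library. The RNase H lists covered 2.04 to 4.36 Mb in all, against 22.0 Mb or more in untreated libraries. Leaving out any untreated library but siScramble replicate 1 left adjusted p of both genes between 0.0501 and 0.0601 by the same exact permutation test with fewer assignments.

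The design asks whether depletion of DDX1 or EXOSC3 changes R-loops. At the imprinted genes no difference over the 3 groups passed the test. Over 280 splits p cannot go below 0.00357, so no single gene could pass adjustment unless many others shared that p. The counts after adjustment therefore cannot decide the question. Of 13467 genes whose covered bases varied, 394 (2.93%) had an unadjusted p under 0.05 by the exact permutation test over 280 splits, and 0 (0%) passed after adjustment. None of the 4 members tested was among them, with p = 0.407 for Ube3a, 0.179 for Peg3, 0.25 for Kcnq1ot1 and 0.707 for Gnas (exact permutation, adjusted p = 1 for all). The highest fold enrichment, tested in the same way at 6763 genes with a peak in 9 of 9 libraries, gave 443 genes (6.55%) with an unadjusted p under 0.05 and 0 (0%) after adjustment. For Gnas it was 18.999 ± 4.14, 19.6 ± 1.18 and 22.6 ± 7.77 in the libraries labelled siScramble, siDDX1 and siEXOSC3 (SD, n = 3 each, exact permutation p = 0.754). For Ube3a it was 9.26 ± 1.71, 8.30 ± 1.05 and 7.72 ± 0.79 (SD, n = 3 each, exact permutation p = 0.404). Neither difference over the groups passed the test. For Ube3a the libraries of the groups overlapped, although the means labelled siScramble and siEXOSC3 lay further apart than the SD of the latter.

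Peg3 was the only member whose covered bases did not overlap between a pair of groups. Its mean was 985 ± 1196 bases in the libraries labelled siScramble, 1806 ± 1977 in those labelled siDDX1 and 3556 ± 825 in those labelled siEXOSC3 (SD, n = 3 each). The libraries labelled siEXOSC3 were higher than those labelled siScramble in 3 of 3 against 3 of 3, by 2570 bases (two-sided exact permutation p = 0.1, the smallest that 20 assignments allow). Over all genes that varied, 15.7% had at least 1 pair of groups without overlap and 6.19% had this direction, against 1 of the 4 members in both counts. By the peak names the same libraries would place siScramble above siDDX1. Beside it, the library labelled siScramble with no Peg3 peak was also the list with the fewest peaks (23882), and the high library labelled siDDX1 had the highest background depth of the untreated libraries (1.292 fragments). With every list cut to its 23882 strongest peaks, the covered bases of Peg3 were 0, 445 and 0 in the libraries labelled siScramble, 2681, 784 and 549 in those labelled siDDX1, and 2604, 4006 and 3735 in those labelled siEXOSC3, with an unadjusted exact permutation p of 0.0107 over the 3 groups. This was the lowest p of Peg3 among the alternatives, which ran up to 0.361 by exact permutation, and it did not pass adjustment. The share of all genes under 0.05 at equal peak numbers is not given here. Without siDDX1 replicate 1, the high library named above, the libraries labelled siEXOSC3 lay above those labelled siDDX1 as well. Leaving out any other single library did not do this. The part of peak number and depth in the Peg3 values was not tested.

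**Figure D5:**
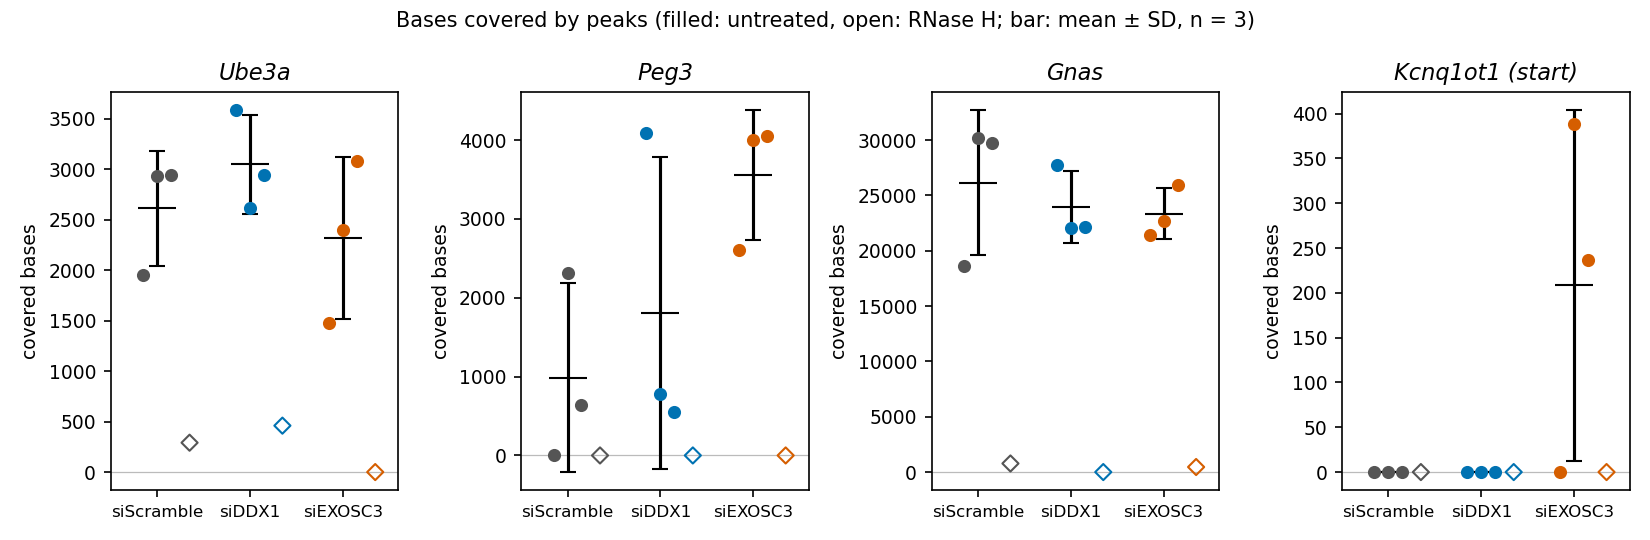
Bases covered by peaks (y axis) in the windows of Ube3a, Peg3 and Gnas and at the Kcnq1ot1 start, by labelled group (x axis). Filled points are the 3 untreated libraries, open diamonds the RNase H library, and bars the mean ± SD of the untreated libraries. The groups overlap for Ube3a and Gnas, the siEXOSC3 points lie above the siScramble points for Peg3, and the Kcnq1ot1 start, the only part of that RNA measured here, has signal in 2 libraries.

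Of 25 neighbours of the 10 genes in the annotation, 4 had a peak in 9 of 9 untreated libraries, 2 in some and 19 in none, beside the 18.1% in 9 of 9 and 63.4% in none over all genes. The 4 were Nespas, which shares its peaks with the first Gnas block (median 11716 covered bases), Mrpl23, a mitochondrial ribosomal protein gene beyond H19 (4654), Cd81, a tetraspanin gene (2940), and Tssc4 (2501). All 4 fell under RNase H (exact permutation, adjusted p = 0.0409 each). They were named for a peak in every untreated library, so these calls largely follow from that choice. The 36.2% called over all genes tested rests on genes with a peak in any library and is not a like share. Kcnq1, which holds the Kcnq1ot1 start, had a peak in 7 of 9 and Mkrn3, of the Snrpn domain, in 6 of 9. Among the 19 without an untreated peak were Ndn and Magel2 of the Snrpn domain, Cdkn1c and Phlda2 of the Kcnq1ot1 cluster, and Dlk1 and Rian beside Meg3. Cd81 covered 923, 1264 and 2940 bases in the libraries labelled siScramble, 3043, 1342 and 1027 in those labelled siDDX1, and 3761, 3267 and 3776 in those labelled siEXOSC3. It was higher in every library labelled siEXOSC3 than in any labelled siScramble or siDDX1, whereas the test over the 3 groups did not pass (exact permutation p = 0.139, adjusted p = 1). Cd81 was the only neighbour with a pair of groups without overlap, among the 4 with a peak in 9 of 9 and the 2 with a peak in some. Over all genes that varied, 15.7% had such a pair. The shares for siEXOSC3 above siScramble and above siDDX1 were 6.19% and 4.94%.

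Of 21 imprinted genes of other clusters in the annotation, 7 had a peak in 9 of 9 untreated libraries, 8 in some and 6 in none. Over all genes the shares were 18.1% in 9 of 9 and 63.4% in none. The highest were H13, a signal peptide peptidase gene with a median of 14367 covered bases, Impact (4577), Mest, a paternally expressed hydrolase gene (4098), Copg2 (3363), Blcap (2996), Zdbf2 (2549) and Mcts2, a retrogene inside H13 (2430). All but Blcap were called lower under RNase H (exact permutation, adjusted p = 0.0409 each, and 0.0713 for Blcap). These 7 also had a peak in every untreated library, so the calls largely follow from that choice. A pair of groups without overlap was found at 2 of these genes, beside the 15.7% over all genes that varied. Peg10, a retrotransposon-derived gene, covered 628, 2766 and 1042 bases in the libraries labelled siScramble and 420, 0 and 0 in those labelled siDDX1, and Inpp5f, a phosphoinositide phosphatase gene, was higher in those labelled siEXOSC3 (363, 342 and 907) than in those labelled siDDX1 (325, 0 and 0).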

How the data were processed

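DRIP-seq of 12 libraries was used, 3 untreated and 1 RNase H-digested for each of 3 groups. The input library is not analysed here. Per the study's methods and processing notes, the authors aligned reads to mm9 with Bowtie2 2.4.4 and called peaks for every library with MACS2 2.2.6 against input. The deposited lists give fold enrichment as a linear ratio and the −log10 p-value and −log10 q-value of each peak, and the lowest −log10 q lay just above 2. The authors' test on recounted reads (DESeq2) was not repeated, since read counts were not used here.

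The 10 genes and all gene lists were chosen with earlier results of these data known. Windows were GENCODE vM1 bounds extended by 1000 bases. Covered bases and the highest fold per window and library were computed in Python 3.11.15 with numpy 2.4.6 and scipy 1.17.1. Peaks of untreated libraries that overlapped or touched were merged into regions. Summit fragments and background were solved from fold and −log10 p of 2000 peaks drawn at random from each list, without those of extreme −log10 p. At least 99.95% of these summits came out whole within 0.0002 of −log10 p. Exact permutation tests moved RNase H labels within groups (64 assignments) or split 9 libraries into 3 groups (280 splits, smallest p 0.00357), with Benjamini-Hochberg adjustment over all genes and a threshold of 0.05. Per the study's methods, replicates were separate plates of the line, so p-values measure the spread between plates. All 10 genes are named, and from the context lists those with a call, a pair of groups without overlap or the most covered bases. Alternatives were other windows, a −log10 q of at least 5, equal peak numbers, scaling by library total, joining of peaks, peak number, a replicate block, centred folds and leaving out each library. The code was tested on simulated data. Promoters and the Kcnq1ot1 start come from RefSeq (GRCm38) and were placed on mm9 by exact match. Part of the neuronal marker list is not reported here.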

Additional observations from a re-analysis of the deposited data

How the results depend on the processing

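Of the 10 genes 2 were called lower under RNase H, out of 5 that could be tested. With 1 untreated library left out this count was 0 to 2. It remained 2 only without siScramble replicate 1, and fewer assignments then raise the smallest p. Scaled by library total it was 1 (Gnas), with Ube3a at 15.3 bases per covered Mb higher after digestion through the peaks deep in the gene. For the number of peaks it was 1. The count of genes with a pair of groups without overlap was 1 (Peg3), 1 to 2 with 1 library left out, and 2 when scaled by library total, where Ube3a labelled siEXOSC3 lay below siDDX1 and Peg3 labelled siEXOSC3 also above siDDX1. With equal peak numbers Peg3 labelled siDDX1 also lay above siScramble. Gnas joined without siScramble replicate 1, Kcnq1ot1 without siEXOSC3 replicate 1 and Ube3a without siEXOSC3 replicate 3. The 3-group tests of covered bases and of fold called 0 genes under every alternative run. As in the main test, the smallest possible p left a single gene little room to pass adjustment, so these counts do not decide the question.

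The replicate numbers showed no uniform pairing of the libraries. Correlations of same-numbered libraries ran from −0.81 to 0.84, and 3 of 9 correlated best with their own number. Lists with few peaks also correlated across numbers, at 0.84 for siScramble replicate 1 (23882 peaks) with siDDX1 replicate 2 (24167 peaks). This check therefore cannot tell whether plates were paired. With the replicate block 67 genes had an unadjusted p under 0.05, against 394 without it, and 0 passed after adjustment in either. The replicate block called 0 of the 10 genes in covered bases and in fold. With the block p cannot go below 0.0278, so adjustment left no gene able to pass and this count was fixed in advance. The coarser steps of p also bear on the 67 against 394. Unadjusted p of Peg3 over the groups ran from 0.0107 to 0.361 over the alternatives and that of Kcnq1ot1 from 0.0357 to 1 (exact permutation). Peak lists limit all of this, since a summit of 5 to 7 fragments was the weakest among the untreated peaks sampled and shifts of signal inside a called region do not show.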

Other observations

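Slc22a2, a transporter gene beside Igf2r, had no peak in any untreated library and a peak in 3 of 3 RNase H libraries, which covered 252, 424 and 282 bases in those labelled siScramble, siDDX1 and siEXOSC3 (exact permutation p = 0.015625, adjusted p = 0.0409). Ddc, an imprinted gene of another cluster, had a peak in 2 RNase H libraries (334 and 411 bases) and in no untreated library. Zfp64 had one in 3 of 3 RNase H libraries (2107, 1025 and 1299 bases) and in 3 of 9 untreated libraries (368, 648 and 1783 bases). These genes were singled out after their values were seen. The share of all genes called higher after digestion is not given here. Background depth was 1.125 to 1.595 fragments per position in RNase H libraries and 0.544 to 1.292 in untreated ones, and its part in these peaks was not tested.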
